A study of Homo sapiens with 12 samples.

Results

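Tandem 3' splice sites whose 2 acceptors lie 3 bases apart were examined in T-47D, a human breast cancer cell line that expresses the oestrogen receptor. They were taken from the authors' rMATS table of alternative 3' splice sites, where the exon forms had to differ by 3 bases. Within these, members were selected on measured read numbers: a mean of at least 20 reads of both forms per library, and a rarer form of at least 5% of all reads. These conditions left 681 of the 12727 events in the table, and 681 of the 3592 events of any offset that met the same read conditions. The 681 events fall on 641 distinct acceptor pairs in 594 genes, because 35 pairs are listed with more than 1 upstream exon. Below, a site is 1 acceptor pair, given by its event with the most reads.

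RNA sequencing of poly(A) RNA was run on 6 libraries of wild-type T-47D cells, which the labels describe as breast epithelial cells. In 3 biological replicates the cells had received 1 µM palbociclib, an inhibitor of the cell cycle kinases CDK4 and CDK6, for 24 h. In the other 3 they had received the solvent DMSO for 24 h. The same treatments were also measured by ATAC-seq, which reads how open chromatin is to the transposase Tn5.

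An intron ends in the bases AG. The branch point and the pyrimidine-rich stretch before the AG are bound by SF1, U2AF2 and the SF3B complex, and the AG itself by U2AF1. During the second step of splicing the upstream exon is joined just behind an AG, and where another AG follows after a single codon's length, either can be used. Such pairs have the form NAGNAG. The form that uses the upstream AG keeps the extra NAG in the mRNA. Within a coding sequence the spacing keeps the reading frame, usually with an amino acid gained or exchanged. The base before an AG is known to bear on its use, with C or T favoured, then A, and G rarely used.

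The acceptors themselves show what was being counted. A reference sequence, from RefSeq promoter windows on GRCh38.p14, covered 13 of the 1183 acceptor pairs 3 bases apart in the whole table, and 4 of these were members. Both acceptors ended in AG in all 13, and 9 were CAGCAG. The 4 members are printed here as examples, each as 30 bases 5′ to 3′ on the transcribed strand with the NAGNAG in capitals, so that the exon of the upstream form starts after the first AG. EIF3I is set beside them as a pair that is no member, since its rarer form made up 0.34% of reads.
SMARCA4: tgaccaggactgtcttcCAGCAGgaggcca
SERPINA1: ccttggttaatattcacCAGCAGcctcccc
DDX5: tcatttctaccggtctcTAGTAGtgcagct
NALT1: gggcctccatcctctacCAGCAGagaagag
EIF3I: ttactgtcttgtccccaCAGAAGccgatcc
They lie at chr19:10984101-10984130 (plus strand), chr14:94388654-94388683 (minus), chr17:64506253-64506282 (minus), chr9:136547819-136547848 (plus) and chr1:32222518-32222547 (plus), in that order.

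In SMARCA4, the ATPase of the BAF chromatin remodelling complex, both acceptors read CAG. The upstream one took 83.1%, 71.6% and 77.7% in DMSO replicates 1 to 3, and 78.6%, 71.4% and 61.8% in palbociclib replicates 1 to 3. In SERPINA1, which encodes the protease inhibitor alpha-1-antitrypsin, a CAGCAG gave 62.4%, 55.7% and 72.9% with DMSO, and 75.7%, 63.2% and 70.0% with palbociclib. DDX5, a DEAD-box RNA helicase, has TAG at both places and used the upstream one at 90.4%, 95.2% and 94.3%, against 94.5%, 84.1% and 97.8%. The treatment groups overlapped in all 3 of these genes. NALT1, a non-coding RNA gene beside NOTCH1 with a mean of 33.3 reads, also had a CAGCAG and ranged from 10.2% to 56.4% over its DMSO libraries. In EIF3I, a subunit of translation initiation factor 3, the second acceptor is AAG, and the upstream CAG was used at 99.2% to 100.0% in every library (mean 641.0 reads). With 4 members read, no relation between the bases and the use of a site was tested.

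Values of use below are inclusion levels in percent, except where only reads that join 1 upstream exon were counted. They are reads counted for the upstream form over reads of both forms, each divided by its length in the authors' table. That length is 102 bases for the upstream and 99 for the downstream form. Counts for the upstream form include reads that cross the downstream boundary within the exon and may come from another upstream exon. These were 6.1% of the upstream-form reads of the members. Leaving them out lowered the level by more than 10 points at 14 of 641 sites, with a median shift of 0.3 points. The members held 158316 to 233853 reads per library. Of the 1478 events 3 bases apart in the table, 550 had under 20 reads and another 247 had a rarer form under 5%. On the read threshold, BLTP1 (20.2 reads) and TMC6 (20.5) lay just inside, and ADAMTSL5 (19.5) and ZNF540 (19.7) just outside. On the rarer form, TMEM175 (5.02%) and JAK1 (5.10%) lay just inside, and GOSR2 (4.92%) and USP40 (4.89%) just outside. The cells carried the markers of luminal breast epithelium, with FPKM of 41.9 to 50 for ESR1, 385 to 468 for GATA3 and 1575 to 2644 for KRT8. Of markers of other cell types, KRT5, KRT14, PDGFRB, PTPRC, CD3E, PECAM1 and VWF are not listed in the authors' table, TP63, COL1A2 and CD68 stayed under 0.5 FPKM, and COL1A1 had 23.1 to 26.

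The upstream acceptor was the more used one at most sites. Over the 6 libraries it took more than 50% at 417 of 641 sites (65.1%), and the median level was 65.1%, with quartiles of 37.5% and 82.2%. The upstream form exceeded 80% at 182 sites and 90% at 79, while it stayed under 20% at 80 sites and under 10% at 27. Between these, 117 sites (18.3%) lay from 40% to 60%. Reads across the downstream boundary can raise such a level. ATXN2L at 28836748 on chromosome 16 had 53.9%, but 11.0% with junction reads of the same upstream exon only. Sites beyond 95% on either side are largely removed by the rule on the rarer form, so the ends of this range are not a finding.

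**Figure D1:**
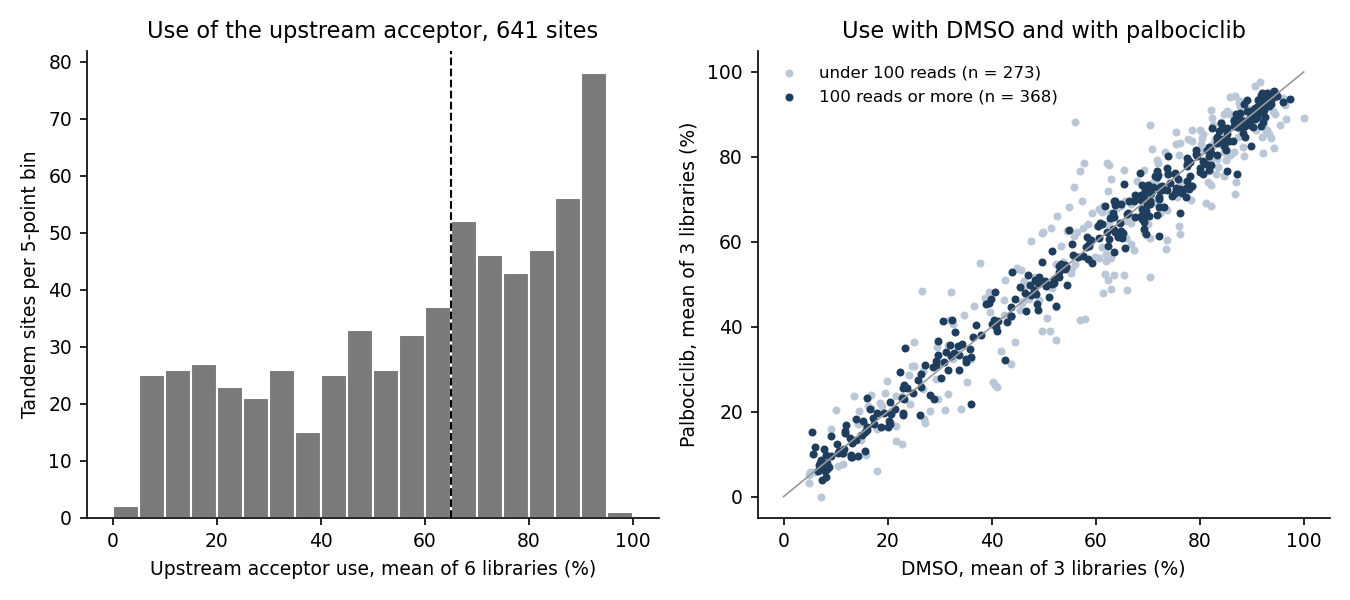
Left, the number of tandem sites in each 5-point bin of upstream acceptor use (mean of 6 libraries, percent), with the median of 65.1% as a dashed line. Right, the mean use in 3 palbociclib libraries against that in 3 DMSO libraries, both in percent, 1 point per site, with the line of equal values; sites with 100 reads or more (dark, 368 sites) lie closer to the line than those with fewer.

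Other alternative 3' splice sites were set beside the tandem sites by the distance between acceptors. Before any condition on the rarer form, among events with at least 20 reads, the rarer form reached 5% at 73.4% of 928 events 3 bases apart, 21.9% of 1107 events 4 to 12 bases apart and 34.2% of 7789 events more than 12 bases apart. The median share of the rarer form was 15.9%, 1.2% and 2.1% in these classes. After the condition, which uses the same quantity, the median share of the rarer form was 24.1% over the 681 events, 13.4% over 242 events 4 to 12 bases apart and 13.7% over 2666 events more than 12 bases apart. Levels between 20% and 80% were held by 58.9%, 32.6% and 34.5% of these classes. The median level of the upstream form was 65.7%, 77.3% and 21.2%. These are descriptions without a test. The spread between replicates, relative to what counting alone would give, was similar, with median ratios of 1.36, 1.35 and 1.23. The introns before tandem sites had a median length of 1370 bases and the exons one of 128, against 878 and 193 at the 2768 other acceptor pairs.

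The most deeply read sites gave the tightest values. PTMA, which encodes the small acidic nuclear protein prothymosin alpha, had a mean of 11434 reads (chromosome 2, plus strand, first exonic bases at 231711887 and 231711890). Its upstream acceptor was the minor one, with 11.8%, 10.7% and 10.8% under DMSO, and 10.1%, 10.3% and 10.9% under palbociclib. The groups overlapped (11.1 ± 0.6% against 10.4 ± 0.4%, SD, n = 3 each).

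GNAS, which encodes the stimulatory G protein alpha subunit, had a mean of 8148 reads (chromosome 20, plus strand, 58903528 and 58903531). After the upstream exon with the most reads, the upstream acceptor prevailed, at 68.1%, 68.1% and 70.6% with DMSO and 67.5%, 66.8% and 69.1% with palbociclib. After another upstream exon, described below, the same acceptor took a mean of 14.9% of junction reads. PCBP2, a poly(C)-binding RNA-binding protein, used its upstream acceptor at 83.6%, 83.1% and 83.4%, and at 84.0%, 82.6% and 83.0%. The groups overlapped at both. SRSF5, an SR protein that itself binds exons to promote splicing, stood near the upper end with 92.7 ± 0.5% and 93.1 ± 0.8%.

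The other 6 of the 10 deepest sites spanned the range as well. MACROH2A1, which encodes the histone variant macroH2A1, was nearly balanced, at 43.0 ± 1.7% with DMSO and 41.1 ± 1.7% with palbociclib. Both translation initiation genes among them preferred the downstream acceptor: the helicase EIF4A2 with 33.7 ± 0.9% and 33.4 ± 0.6%, and the scaffold EIF4G1 with 32.1 ± 1.1% and 33.0 ± 1.9%. CDV3 had 90.9 ± 0.1% and 91.5 ± 1.1%. GATA3, a transcription factor that defines the luminal lineage, had 82.9%, 81.2% and 81.5% with DMSO and 82.4%, 82.0% and 81.4% with palbociclib, and both group means were 81.9%. RBM8A, a core protein of the exon junction complex, had 90.7 ± 1.6% and 91.2 ± 2.0%. Unadjusted p in the edgeR test described below was 0.186 or more at all 10 sites, and the largest difference of group means was 1.9 points.

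**Figure D2:**
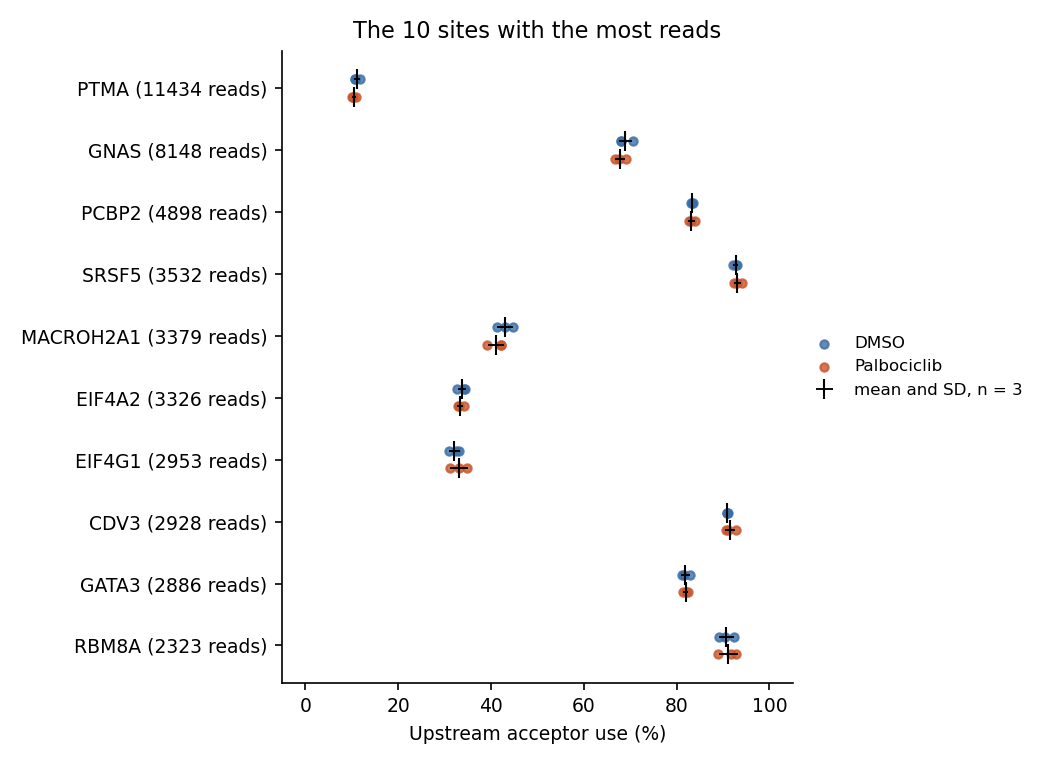
Upstream acceptor use in percent (x axis) at the 10 tandem sites with the most reads, 1 row per site with its mean reads per library; points are libraries (DMSO blue, palbociclib orange), and black marks give the mean and SD of 3 libraries. Each site is given by its event with the most reads, so after 1 upstream exon. Levels run from about 11% (PTMA) to 93% (SRSF5), and both treatments overlap at each.

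Some sites were split almost evenly. Among sites with at least 100 reads, the 5 nearest 50% were RALGAPB, SLC26A6 (49.7%), SBNO1 (49.6%), REPS2 (49.5%) and ADPGK (50.5%). RALGAPB, the beta subunit of the GTPase-activating complex for Ral, had a rarer form of 49.96% of all reads and varied from 42.7% to 56.9% over its 6 libraries, with a mean of 428.0 reads. ADPGK, the ADP-dependent glucokinase, lay between 49.0% and 53.5%. SLC26A6 is an anion exchanger of the plasma membrane and REPS2 a protein of receptor endocytosis, and their levels ran from 44.0% to 57.2% and from 42.7% to 62.9%. In all 5 the treatment groups overlapped.

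Some genes with a tandem acceptor described in earlier work held members; whether these are the pairs described there was not tested. IGF1R, the receptor of insulin-like growth factor 1 (chromosome 15, first exonic base of the upstream form at 98929558), had 71.1 ± 5.8% with DMSO and 72.8 ± 4.3% with palbociclib. ING4, a reader of histone methylation in a histone acetyltransferase complex (chromosome 12, 6652770), had 39.8 ± 12.3% and 46.5 ± 5.6%, and its DMSO libraries ranged from 25.9% to 49.5%. The STAT3 member lies at 42348520 on chromosome 17, behind an intron of 39758 bases. STAT3, a transcription factor of cytokine signalling, gave there 49.7%, 44.8% and 52.5% with DMSO and 49.3%, 40.2% and 42.1% with palbociclib. None of the 3 was apart between treatments. For ATN1, PAX3, PAX7 and ABCA4, the table lists 0 events 3 bases apart.

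BRCA1, which acts in repair of DNA breaks by homologous recombination, held 3 tandem sites with different levels. The site at 43076614 on chromosome 17 (minus strand) used the upstream acceptor at 65.4%, 71.7% and 68.5% with DMSO, and at 76.7%, 67.5% and 84.6% with palbociclib. The one at 43082575 stood at 92.6 ± 2.8% and 92.5 ± 7.9%. At 43099880 it was 73.1%, 71.3% and 70.7% against 74.4%, 78.4% and 84.8%, so that the groups were apart there, but the edgeR test gave an adjusted p of 0.843. RNA of the gene was lower with palbociclib (log2 change -2.75, limma adjusted p 6.3e-09), and in bulk RNA fewer cells that express a gene and less RNA per cell cannot be told apart. Reads at the last site went from a mean of 167.3 to 27.0 per library, so its palbociclib values rest on 16 to 38 reads.

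Several tandem sites in 1 gene often had different levels. In the 45 genes with several member sites, the highest and lowest site differed by a median of 19.3 points, and by more than 30 points in 19 genes. LIMA1, an actin-binding protein, had 1 site at 92.9 ± 2.7% and another at 16.1 ± 0.9% with DMSO, and 94.2 ± 1.4% and 16.3 ± 0.6% with palbociclib. CAP1, which recycles cofilin-bound actin, had 91.9 ± 1.1% and 31.2 ± 2.6% with DMSO. KMT2C, a histone H3 lysine methyltransferase, held 4 sites, with means over DMSO libraries of 92.1%, 62.7%, 96.4% and 14.3%. SF3B2, a subunit of the SF3B complex that recognises the branch point, kept both of its sites close together, at 92.3 ± 1.9% and 93.7 ± 1.0%. Sites of 1 gene share its RNA and its libraries. In CNBP they also share an acceptor, at 129171280 on chromosome 3, with levels of 30.7% and 11.4%, so they are not separate there. LIMA1, CAP1 and the members named in the next paragraph were chosen after their values were seen.

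The same acceptor pair could also be used differently after different upstream exons. For this, only reads that join the acceptor to 1 upstream exon were counted, so that the 2 sets of reads are separate. Of the 35 acceptor pairs listed with several upstream exons, 5 had levels whose ranges over the 6 libraries did not overlap between upstream exons. Several other pairs had very few junction reads after an exon, with means of 2.8 and 3.3 at ENTPD6, 3.0 at ATXN2L and 6.7 at NUDT4. The 5 are therefore no measure of how common such differences are. At GNAS, the upstream acceptor took 67.4%, 67.5% and 70.0% with DMSO and 66.9%, 66.2% and 68.4% with palbociclib after the exon at 58895612 to 58895684. After the exon at 58898941 to 58898985, whose inclusion is known to set the long form of the protein, it took 15.4%, 14.6% and 14.8%, and 15.7%, 13.7% and 15.0%. The means differed by 52.9 points, on means of 7828.5 and 3947.7 junction reads over the 6 libraries.

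In the other 4 pairs the difference was smaller but present in each library. PAM, an enzyme that amidates peptide hormones, had 54.1% to 70.4% after 1 exon and 24.9% to 38.3% after another. TSC2, a brake on mTOR complex 1, had 82.2 ± 2.45% against 53.3 ± 3.46% with DMSO, and 82.7 ± 6.27% against 57.8 ± 3.85% with palbociclib. CHD3, a helicase of the NuRD complex, had 18.9% to 25.9% against 3.0% to 7.9%, and PCBP2 92.3% to 94.6% against 82.4% to 83.8%. These 5 pairs were selected for being apart, so no test is given for them.

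**Figure D3:**
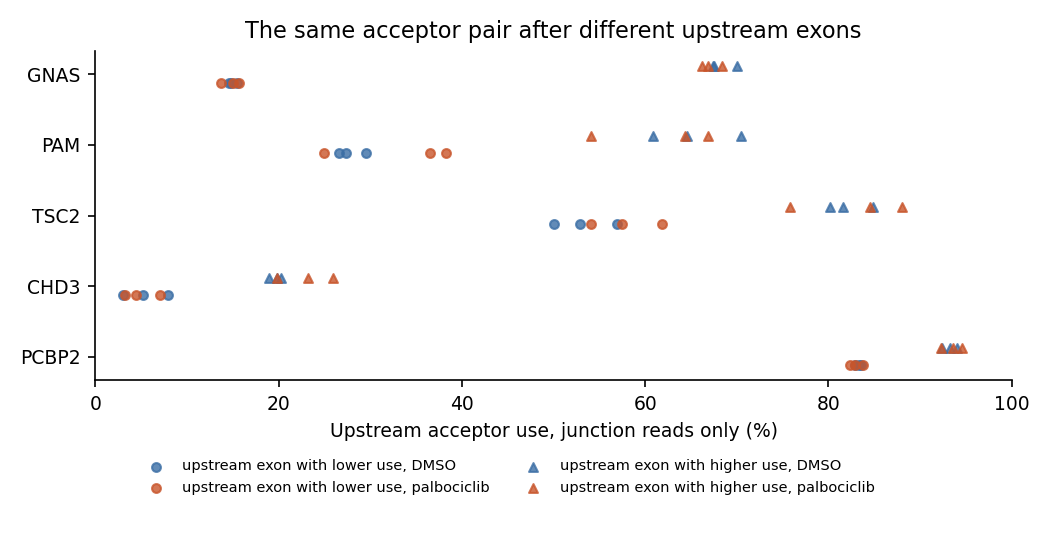
Upstream acceptor use in percent of junction reads (x axis) for the 5 acceptor pairs (rows) whose level differed between upstream exons in all 6 libraries; triangles are the upstream exon with higher use, circles the one with lower use, blue DMSO and orange palbociclib, 1 mark per library. GNAS shows the widest gap, 67.7% against 14.9% on average.

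At none of the tandem sites did the test call a change in acceptor use with palbociclib. The edgeR quasi-likelihood test, fitted over all 3592 events with inclusion and skipping counts of the same library and adjusted by Benjamini-Hochberg, called 0 of the 681 members at an adjusted p under 0.05. Over all events it called 10, or 0.278%, of which 9 were higher (0.251%) and 1 lower (0.0278%). An unadjusted p under 0.05 was reached by 24 members (3.52%) against 7.8% of all events, and the smallest adjusted p of a member was 0.339. DESeq2 also called 0, with 10 members at an unadjusted p under 0.05, and without the filter on the rarer form edgeR gave 8. The mean levels of both treatments over the 641 sites had a Pearson r of 0.98, which is across sites that share libraries and is a description. Per library, the median over the members was 64.5%, 65.2% and 66.0% with DMSO and 64.9%, 66.0% and 65.4% with palbociclib.

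Levels of the 2 groups did not overlap at 73 members (10.7%), with 36 higher and 37 lower under palbociclib, against 13.1% of all events tested (6.26% higher and 6.85% lower). With any 1 library left out, fewer libraries have to lie apart, and the count was 134 to 151. In the authors' deposited table, 13 members (1.91%) had an FDR under 0.05, against 3.56% of all events tested, with 5 higher and 8 lower under palbociclib. Of these 13, 10 had under 100 reads, and 7 remained among members with at least 50 reads. Their adjusted p in the edgeR test ran from 0.339 to 0.742. Members described below that had such an FDR are CPSF7 (0.0208), ZNF140 (0.0307), PBRM1 (0.0463), PHRF1 (0.00236), DCAF5 (0.0281), AMOTL2 (0.0273) and an event of ANKRD17 (0.0223). The edgeR model and the authors' test treat the spread between replicates differently, and which is closer was not tested.

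The 5 largest differences in each direction, among sites with at least 50 reads and groups apart, all missed the threshold of the test. CPSF7, a subunit of the cleavage factor that places poly(A) sites (chromosome 11, minus strand, first exonic bases at 61421130 and 61421127), had the largest difference downward. Its upstream acceptor took 63.9%, 71.1% and 63.1% with DMSO and 49.9%, 49.9% and 46.3% with palbociclib. The lowest DMSO library thus stood well above the highest treated one. The change in log2 odds was -1.06 (SE 0.44, 95% interval -1.97 to -0.16, edgeR adjusted p 0.551), and the FDR in the authors' deposited table was 0.0208.

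FLYWCH1, a zinc finger protein, had the largest difference upward, with 67.1%, 62.1% and 41.6% under DMSO and 74.4%, 79.2% and 76.5% under palbociclib (log2 odds 1.19, SE 0.53, adjusted p 0.578). DMSO replicate 3, with 26 reads, was its lowest library. AFDN, the adherens junction protein afadin, had 52.5%, 58.9% and 53.0% with DMSO, and 71.3%, 62.7% and 70.4% with palbociclib. All 3 treated libraries lay higher, with an adjusted p of 0.647. ZNF140, a KRAB zinc finger protein, used the upstream acceptor at 3.1%, 12.1% and 1.2%, and at 15.5%, 17.5% and 12.9% with palbociclib (log2 odds 1.44, SE 0.59, adjusted p 0.521). DMSO replicate 2 was the library nearest the treated ones. Without it the log2 odds were 2.99 (adjusted p 0.15) and without DMSO replicate 3 they were 0.94, and over all alternatives the adjusted p ran from 0.15 to 0.97.

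Among the other upward differences, VPS13D, a lipid transfer protein, had 23.3 ± 5.9% and 35.1 ± 6.0%, and its highest DMSO library (30.1%) all but met its lowest treated one (30.2%). IFT122, a protein of transport in cilia, had 30.6 ± 6.3% and 41.3 ± 4.2%. Its log2 odds of 0.71 became 0.44 without DMSO replicate 2. Among the downward ones, WDR31 had 82.1 ± 4.9% and 68.4 ± 8.0%, with 76.9% as its lowest DMSO and 76.4% as its highest treated value. SPINK13, a Kazal-type protease inhibitor, had 58.0 ± 8.5% and 41.9 ± 4.7%, and log2 odds of -0.99 that became -0.65 without DMSO replicate 2. Its DMSO libraries held only 31, 38 and 17 reads. Adjusted p was 0.578 or more at these 4 sites.

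The last 2 of the 10 rested on very few treated reads. NRGN, the calmodulin-binding protein neurogranin, gave 39.7%, 39.1% and 44.1% with DMSO, and 17.7%, 32.7% and 26.7% with palbociclib on 11, 12 and 11 reads. MCM10, which loads the replication machinery at origins, gave 36.8%, 37.6% and 33.5%, and then 0.0%, 32.7% and 32.7%. Palbociclib replicate 1 held 0 upstream reads of 10, which allows a share of up to 30.0%, and the other treated libraries were close to the DMSO ones. Its change in log2 odds of -0.94 became -0.19 without that library, -1.53 without palbociclib replicate 3 and -1.61 with junction reads only. RNA of both genes was lower with the drug, at log2 changes of -2.56 for NRGN and -3.45 for MCM10 (limma adjusted p 3.6e-08 and 1.97e-09).

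**Figure D4:**
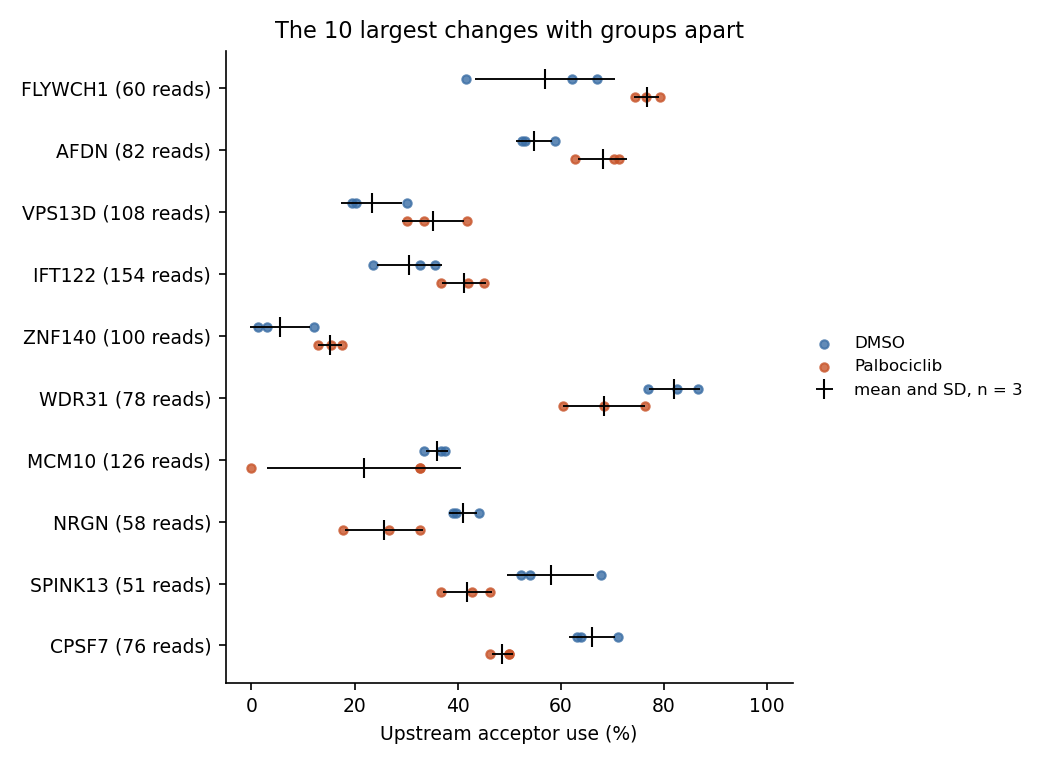
Upstream acceptor use in percent (x axis) at the 5 sites with the largest upward (upper rows) and the 5 with the largest downward difference (lower rows) among sites with at least 50 reads and groups that do not overlap, with mean reads per library; points are libraries (DMSO blue, palbociclib orange), black marks the mean and SD of 3. CPSF7 shows the clearest gap, while MCM10 rests on 1 treated library at 0.0%.

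The size of a measured change followed the number of reads. A difference of 10 points or more between group means was seen at 61 sites, and 55 of them had under 100 reads. Among the 368 sites with at least 100 reads there were 6. The median SD between replicates was 9.4 points at 20 to 50 reads, 6.7 at 50 to 100, 4.2 at 100 to 300, 2.3 at 300 to 1000 and 1.2 above. Counting alone would give 7.8, 5.3, 3.1, 1.8 and 0.9 points. The 95% interval of a change in log2 odds reached a median of 1.66 to each side in the first class, 0.73 at 100 to 300 reads and 0.24 in the last. The largest difference was 3.7 points at the 22 sites with 1000 reads or more, and 32.1 points at the 146 sites under 50 reads; the test called neither. The majority acceptor differed between the group means at 32 sites.

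**Figure D5:**
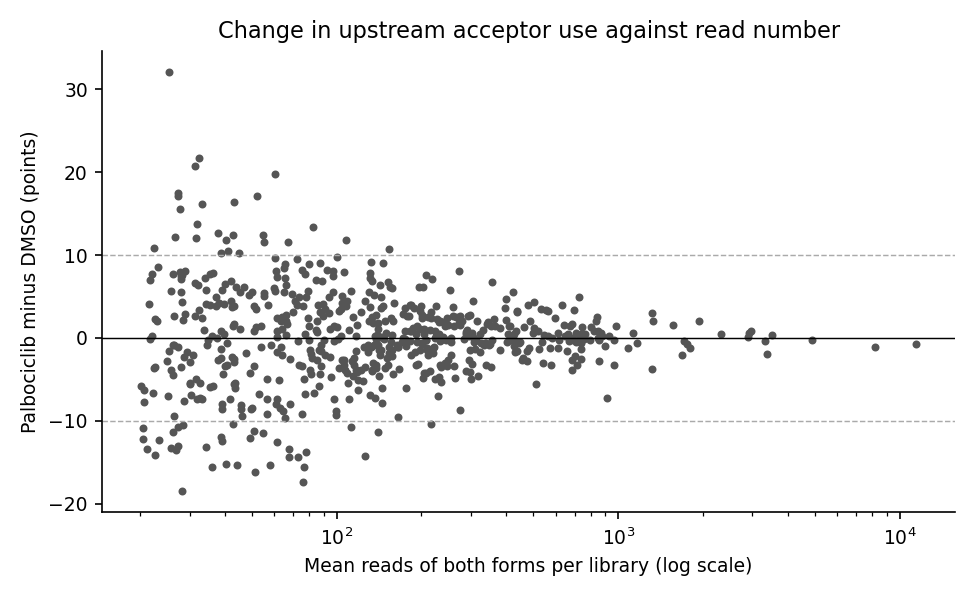
Palbociclib minus DMSO in upstream acceptor use (y axis, percentage points, means of 3 libraries) against mean reads per library (x axis, log scale), 1 point per tandem site, with dashed lines at 10 points to either side. The points narrow toward 0 as reads rise, and 6 of the 368 sites with at least 100 reads lie beyond the dashed lines.

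Sites in cell cycle genes had fewer reads after the drug. A list of 127 genes of replication and mitosis held 19 sites in 15 genes, and all 19 had fewer reads with palbociclib, with a median of 329.3 with DMSO and 54.0 with the drug. The median change in upstream use was -0.1 points, with a range from -14.2 (MCM10) to 9.2 points (CENPE). Fewer reads with palbociclib were also seen at 33.7% of all 641 sites. These read numbers are not scaled for depth. All alternative 3' splice site events held 6497138 to 9453287 reads per DMSO library, and 8456491 to 9134027 per palbociclib library. The groups were apart at 4 of the 19, and 2 had an unadjusted p under 0.05, against 13.1% and 7.8% of all events tested. The sites covered the whole range of acceptor use. AURKB, the kinase of the chromosomal passenger complex, used the downstream acceptor almost alone (8.2 ± 1.2% upstream with DMSO), as did CDC45, a part of the replicative helicase (6.1 ± 3.1%). TTK, a kinase of the spindle checkpoint, had 81.8 ± 3.2% with DMSO and 81.6 ± 8.5% with palbociclib. LIG1, which joins Okazaki fragments, had 69.5 ± 4.8% and 72.2 ± 4.7%. CENPE, a kinetochore motor, had 33.0%, 32.7% and 31.6% with DMSO and 26.1%, 45.7% and 53.1% with palbociclib on 26 to 30 reads, so its groups overlapped. AURKB, CDC45, CENPE, LIG1 and TTK were picked after their values were seen.

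Those 2 were NUSAP1 and TIMELESS. NUSAP1, which bundles spindle microtubules, had a balanced site at 41365402 on chromosome 15 with 51.3%, 53.0% and 52.6% under DMSO, and 42.4%, 46.0% and 46.7% under palbociclib. The groups were apart, on 154 to 181 treated reads, with a change in log2 odds of -0.42 (SE 0.17, edgeR p 0.0165, adjusted p 0.521). Another NUSAP1 site, at 41350988, stayed at 93.7 ± 0.4% and 93.7 ± 5.3%. The RNA of the gene had a log2 change of -3.76 (limma adjusted p 8.08e-10). TIMELESS, which protects stalled replication forks, had the opposite direction, with 81.8%, 82.9% and 82.6% under DMSO and 89.2%, 85.8% and 85.3% under palbociclib (adjusted p 0.578).

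FOXM1, the transcription factor that drives mitotic genes, shows how widely sites of 1 such gene can differ. Its site at 2864755 on chromosome 12 had 20.0 ± 1.8% with DMSO and 16.5 ± 5.5% with palbociclib. The one at 2872247 had 61.7 ± 4.2% and 68.4 ± 7.9%. Both kept their rank in every library, although FPKM of the gene went from 54.1 ± 1.52 to 5 ± 0.0735. ECT2, an exchange factor for RhoA in cytokinesis, had 94.2 ± 0.7% and 95.6 ± 1.0%.

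A list of 145 genes of RNA processing held 20 sites in 18 genes. They had a median of 409.5 reads with DMSO and 534.5 with palbociclib, and a median size of difference of 1.4 points, against 131.0 reads and 3.0 points over all sites. These reads are not scaled for depth either, so they are no measure of RNA level. The groups were apart at 2 of them, CPSF7 and a site of the kinase CLK2, and 1 had an unadjusted p under 0.05, against the same 13.1% and 7.8%. SRRT, which links the cap-binding complex to RNA decay and processing, had 58.8 ± 1.0% with DMSO and 59.0 ± 0.2% with palbociclib. SRSF10 had 77.6 ± 1.1% and 79.7 ± 2.3%, and ACIN1, a protein linked to the exon junction complex, 79.2 ± 1.9% and 81.7 ± 1.8%.

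A list of 116 chromatin genes held 26 sites in 19 genes, where the groups were apart at 0 sites and 0 had an unadjusted edgeR p under 0.05, against 13.1% and 7.8% of all events tested. The smallest edgeR p was 0.11, at PBRM1, with a difference of 8.1 points on a mean of 28.8 reads. Its FDR in the authors' deposited table was 0.0463. MTA3, a NuRD subunit, had 55.6 ± 2.5% and 56.9 ± 3.5%, and BRD7, a bromodomain subunit of the PBAF complex, 37.0 ± 3.2% and 40.4 ± 2.3%. KDM5C, a histone H3 lysine demethylase, had 80.7 ± 0.6% and 79.1 ± 2.3%. A further SMARCA4 site, at 11058255 on chromosome 19, had 69.2 ± 1.3% and 70.9 ± 2.3%. The CHD3 site had 28.1 ± 9.5% and 24.0 ± 7.6%, including reads that cross the downstream boundary within the exon and may come from another upstream exon.

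The RNA of the factors that recognise 3' splice sites was lower in part. Of 36 such genes, limma on log2(FPKM + 1) called 18 lower and 2 higher at an adjusted p under 0.05, with a median log2 change of -0.12, against 22.9% lower and 20.9% higher of 15869 genes tested and a median of 0.00. U2AF2, which binds the pyrimidine stretch, had FPKM of 81, 81.3 and 82.3 with DMSO, and 67.5, 67.6 and 65.3 with palbociclib (log2 change -0.28, adjusted p 0.000117). Its partner U2AF1, which binds the AG, had 119, 113 and 130, and then 104, 99.8 and 102 (-0.24, adjusted p 0.00487). The groups were apart in both genes.

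PHF5A, a small SF3B subunit, had the largest fall, from 21.5 ± 1.41 to 14.3 ± 0.781 FPKM (log2 change -0.56, adjusted p 0.000122). DDX46 and SF3B3, a helicase of branch point recognition and another SF3B subunit, had log2 changes of -0.49 and -0.45. SF1, which binds the branch point first, changed by -0.13 (adjusted p 0.00899). SF3B1, the subunit in contact with the branch point, rose by 0.12 (adjusted p 0.0418), and ZRSR2, which acts at acceptors of U12-type introns, by 0.23 (adjusted p 0.00408). PUF60, a cofactor of U2AF2, and SF3B2 also hold tandem sites; that of PUF60 had 84.2 ± 2.5% with DMSO and 86.8 ± 5.5% with palbociclib. The second-step factors SLU7 and PRPF18 had log2 changes of 0.09 and 0.02 and were not called. Calls among the factors were 9 higher and 16 lower after quantile normalization, and 1 higher without DMSO replicate 2 or without palbociclib replicate 1. All 20 called factors kept their direction under quantile normalization, with U2AF2 at -0.24 and SF3B1 at 0.16. Whether these RNA levels bear on acceptor use was not tested.

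Many genes that hold a tandem site had a changed RNA level. Of 590 tested, 120 were higher and 179 lower with palbociclib (50.7% called, against 43.7% of all genes tested). Member genes had to hold a mean of 20 reads at a site, the others only a mean FPKM of 0.5. The shares are thus not of like genes. After quantile normalization the split was 183 higher and 144 lower. Of the genes called lower, 36 had a log2 change of -1 or below, and these held 41 sites. At those 41 sites the median reads went from 226.3 with DMSO to 52.0 with palbociclib, which follows from choosing genes with lower RNA. The upstream share was higher at 17 of them and lower at 24, with a median change of -0.2 points. The groups were apart at 8 of the 41, and 2 had an unadjusted p under 0.05, the smallest being 0.0165, against 13.1% and 7.8% of all events tested.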

How the data were processed

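The members and gene lists were chosen with earlier results of these data known. Inclusion and skipping read counts, and exon coordinates on GRCh38, came from the splicing tables deposited by the authors, made with rMATS (version not given in the sources used here), with an FDR, which is an adjusted p-value, and a level difference, a score, per event. The submitters' processing notes name STAR 2.7.10b, fastp 0.23.2, Salmon 1.10.2 and DESeq2 1.44.0, with no role given. Gene levels were FPKM as deposited by the authors, 1 column per library. ATAC counts per peak were deposited by the authors. Libraries were grouped by the labels, without pairing.

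Acceptor use was tested with the edgeR 4.0.16 quasi-likelihood test in R 4.3.3 on both read counts. The model held terms for each library, for the form and for form by treatment, with TMM scaling, and p-values were adjusted by Benjamini-Hochberg over 3592 events. RNA levels were compared with limma 3.58.1 on log2(FPKM + 1) where the mean FPKM reached 0.5. Fold changes on that scale understate low genes. Both were run on simulated data. For edgeR, changes of a single size were planted only at events with at least 100 reads. The power to find smaller changes, or changes at fewer reads, was not tested. DESeq2 1.42.0 and the other alternatives are given at the end. The bound on a share where a form had no read, as given for MCM10, covers counting error only. Intervals of a change in log2 odds come from the edgeR fit, which also takes in the spread between replicates. Reads carry no molecular identifiers. Sites were named by rule: the 5 largest rises and falls with at least 50 reads and groups apart, the 10 deepest, the 5 nearest 50% with at least 100 reads, sites in genes with a tandem acceptor known from earlier work, up to 6 per list with at least 100 reads, and those next to each threshold. Of the sites so named, 2 are not reported here.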

Additional observations from a re-analysis of the deposited data

How the results depend on the processing

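In all 15 alternative fits, edgeR or DESeq2 called 0 members in either direction, and the smallest adjusted p of any member was 0.0926. Members at an unadjusted p under 0.05 numbered 10 with DESeq2 and 8 without the filter on the rarer form, against 24, and 19 to 27 with 1 library left out. All 10 sites named for their change kept their direction and stayed uncalled. The median DMSO level was 64.2% with 1 event per acceptor pair and 63.3% with junction reads only, an alternative chosen after seeing the data, against 65.0% over all members. Groups apart numbered 134 to 151 with 1 library left out, and 7 members with at least 50 reads had an FDR under 0.05 in the authors' deposited table. Member genes called higher were 183 after quantile normalization, which moved the median of all genes by 0.06. Factors called higher were then 9, and 1 to 2 with 1 library left out.

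Replicate numbers are shared between treatments but not stated to pair libraries. Deviations of same-numbered libraries had correlations of 0.106, -0.00513 and 0.0879 for RNA levels, and -0.032, -0.0329 and 0.0487 for acceptor use, so the block was not adopted. With the replicate number as a block, 0 members were called, 24 had an unadjusted p under 0.05, and the factors called higher were 4. Reads limit the result: under 50 reads, the interval of a change in log2 odds reached 1.66 to each side.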

Other observations

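The tandem sites with the smallest p are described here, each given by its event with the most reads. They were chosen after their values were seen. This leaves out an ANKRD17 event with a mean of 70.5 reads and a difference of -16.2 points (unadjusted edgeR p 0.012, adjusted 0.468). SREK1 is a splicing regulator of the SR protein family that the list of RNA processing genes left out. It had the smallest p of any member, 0.00494 unadjusted in the edgeR test (adjusted 0.339). Its upstream acceptor took 89.1%, 90.3% and 86.0% with DMSO and 92.3%, 92.8% and 92.3% with palbociclib, so the groups were apart on a mean of 634.2 reads. PHRF1, a PHD and RING finger protein, had the widest difference of any site, with 41.6%, 52.4% and 74.4% under DMSO and 86.0%, 81.4% and 97.3% under palbociclib, on a mean of 25.3 reads (adjusted p 0.339). A second PHRF1 site with 97.7 reads had 83.2 ± 6.1% and 75.9 ± 8.6%. DCAF5, a substrate receptor of a ubiquitin ligase, had 77.8%, 91.0% and 87.3% with DMSO and 73.5%, 77.7% and 78.7% with palbociclib, and these overlap. AMOTL2, an angiomotin family protein of cell junctions, had 92.5%, 80.7% and 88.4%, and then 78.9%, 71.7% and 77.1%, which do not (adjusted p 0.484).

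Few tandem acceptors lay inside an ATAC peak. Of 641 sites, 6 did: VASP, FKBP8, ADAM15, TMPRSS3, ACBD4 and GPS1. In the peak over the site of VASP, a regulator of actin filaments, counts scaled to library size (CPM) were 30.5, 31.4 and 34.2 with DMSO and 27.3, 28.2 and 25.4 with palbociclib (log2 change -0.25, edgeR adjusted p 0.0375). It was the 1 peak of the 6 that was called, against 11.9% of all 38121 peaks.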
